A study of Bos taurus with 6 samples.

Results

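The enzymes described here make the amino acid serine from a glycolytic intermediate and pass its side-chain carbon through folate to the synthesis of nucleotides, methionine and formate. The set holds 9 genes, PHGDH, PSAT1, PSPH, SHMT1, SHMT2, MTHFD1, MTHFD2, MTHFD1L and ALDH1L2, taken by platform gene symbol out of 18010 named genes. All 9 were measured, each through its probe set with the highest mean. The values are mRNA levels on a microarray, in log2 units, from cultured stromal fibroblasts of the bovine ovary (Bos taurus). There were 3 samples of cells from normal ovary and 3 of cells from ovarian tumor, all grown in DMEM/F12 medium with FKS and without a specific treatment. The labels name neither the kind of tumor nor the breed, age or number of animals, and nothing tells whether samples of 1 group had separate origins. The p-values therefore reflect the spread among these samples alone, and it may be technical.

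Serine synthesis branches from glycolysis at 3-phosphoglycerate. PHGDH oxidises this intermediate, PSAT1 adds the amino group and PSPH removes the phosphate to release serine. Serine hydroxymethyltransferase then moves the side-chain carbon to tetrahydrofolate, giving glycine, in the cytosol through SHMT1 and in mitochondria through SHMT2. In mitochondria MTHFD2 oxidises the folate-bound carbon, MTHFD1L releases it as formate, and ALDH1L2 burns it to carbon dioxide. MTHFD1 in the cytosol takes up formate again for purine and thymidylate synthesis. Several of these genes are known targets of the transcription factor ATF4, which responds to lack of amino acids, and dividing cells have a high demand for their products.

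Tumor stromal cells had less mRNA of most of these enzymes. Of the 9, 5 fell and 0 rose at an adjusted p of 0.05 (limma with Benjamini-Hochberg adjustment over all 18010 genes; 6 lower and 0 higher at an unadjusted p of 0.05). Over all genes 9.44% were called lower by the same test and 8.56% higher, and 13% were called lower among the 12807 genes above a background guide (described with SHMT1) in at least 1 group. Among the enzymes that passed, the largest falls were in the last steps of serine synthesis, PSPH at 2.87-fold and PSAT1 at 2.59-fold, followed by the folate enzymes MTHFD1, MTHFD2 and MTHFD1L. In 6 of the 9, these 5 and PHGDH, every tumor sample lay below every normal sample. This pattern was seen in 18.1% of all genes, and in 3060 of the 12807 genes above the background guide. The median difference over the 9 was -0.80, against 0.02 over all genes (tumor minus normal, log2). SHMT1, SHMT2 and ALDH1L2 had overlapping groups and did not pass.

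**Figure D1:**
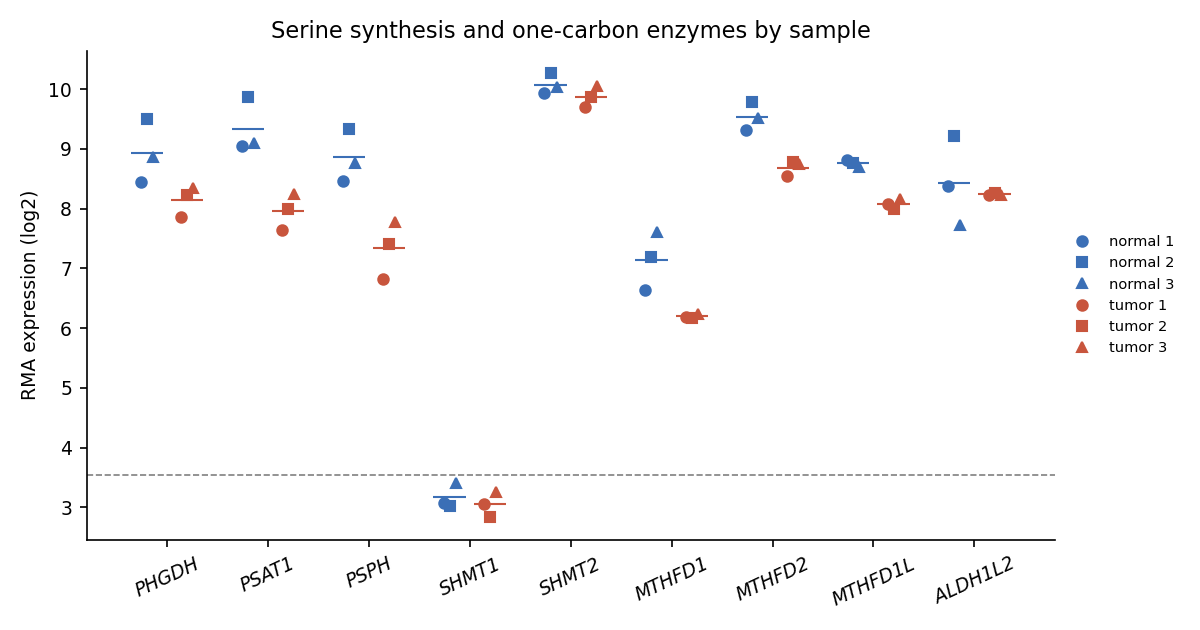
RMA expression (log2) of the 9 enzymes in each of the 3 normal (blue) and 3 tumor (red) samples; marker shape gives the replicate, bars are group means, and the dashed line at 3.54 is the level under which 95% of olfactory receptor group means lay. Groups are apart for PHGDH, PSAT1, PSPH, MTHFD1, MTHFD2 and MTHFD1L and overlap for SHMT1, SHMT2 and ALDH1L2.

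Fibroblast genes were high in all samples, with COL1A1 at 11.85 to 12.04 and VIM at 11.66 to 12.10. PTPRC of leukocytes and EPCAM of epithelium were at 2.44 or less in each, but some other markers of those types were brighter. KRT18 stood at 5.93 to 7.99 in normal and 4.23 to 4.54 in tumor samples, and KRT19 at 5.79 to 6.23 and 3.67 to 4.17. CD14 stood at 4.94 to 5.74 in normal and 5.61 to 5.71 in tumor samples. Of 9 fibroblast markers 2 rose and 0 fell in limma (4 and 1 at an unadjusted p of 0.05), and 0 rose without tumor replicate 1 or tumor replicate 2. Those that rose were COL3A1 (0.61) and PDGFRA (0.89). Some markers of other cells or states moved with the groups. To set beside each marker count here, 9.44% of all genes were called lower and 8.56% higher by the same test. Of 9 measured cycling-cell markers, 5 fell and 0 rose in limma (6 and 0 at an unadjusted p of 0.05), and their values summed on the linear scale ran from 1519 to 3136 in normal and 637 to 1096 in tumor samples. CENPE (-1.85), CDC20 (-1.84), PLK1 (-1.81) and CCNB1 (-1.59), genes of mitosis, fell the most of them, and MKI67 differed by -1.20 (adjusted p = 0.0655 in limma). Of 7 epithelial markers, the keratins KRT18, KRT19 and KRT8 fell, KRT8 with a call that held only when normal replicate 3 was the sample left out. Summed epithelial values ran from 174.2 to 409.6 in normal and from 93.15 to 99.95 in tumor samples. CD68 rose among 6 leukocyte markers, from 5.17 to 5.34 in normal to 6.07 to 6.68 in tumor samples, while the other 5 were not called, PTPRC and ITGAM under the background guide in both groups. The summed values of the 6, to which CD68 adds much, were 102.6 to 128.4 in normal and 159.9 to 191.9 in tumor samples. Of 5 granulosa markers FOXL2 fell and 0 rose in limma (1 and 1 at an unadjusted p of 0.05), and the other 3 were under the background guide in both groups. FOXL2 stood at 4.96 to 5.16 in normal and 3.08 to 3.49 in tumor samples. Its tumor mean was under the guide, so the size of its fall is not exact. The marker higher in tumor samples at an unadjusted p of 0.05 was AMH, named after its values were seen. It stood at 3.98 to 4.24 in normal and 4.39 to 4.93 in tumor samples (adjusted p = 0.0569 in limma). Array weights called 1 granulosa marker higher, as did the fit without genes under the background guide in both groups. Summed granulosa values were 65.9 to 73.6 in normal and 50.7 to 60.6 in tumor samples. Of 5 endothelial markers 0 were called in limma, also at an unadjusted p of 0.05. The part of these differences in the results was not tested, and in bulk samples fewer cells of a type and less RNA per cell cannot be told apart.

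The serine synthesis enzymes were lower in tumor cells at each step, although the first step did not pass the test. PSPH, the phosphatase of the last step, stood at 8.46, 9.34 and 8.77 in normal samples 1 to 3 and at 6.82, 7.40 and 7.78 in tumor samples 1 to 3. Its groups were 0.68 apart at their nearest samples, and the fall was -1.52 ± 0.29 (log2, SE; adjusted p = 0.0105 in limma). PSAT1, the aminotransferase of the middle step, stood at 9.05, 9.86 and 9.10 in the normal and at 7.65, 7.99 and 8.25 in tumor samples, with normal 2 well above the other normal samples. The groups of PSAT1 were 0.80 apart, and it fell by 1.37 ± 0.25 (adjusted p = 0.00842 in limma). Only 1.68% of all genes had a difference as low as that of PSAT1 and 1.29% one as low as that of PSPH.

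PHGDH, the dehydrogenase that commits the glycolytic intermediate to serine, stood at 8.45, 9.50 and 8.86 in the normal and at 7.86, 8.22 and 8.34 in tumor samples. The groups did not overlap, but only 0.11 separated normal 1 from tumor 3, and the normal samples spread over 1.05. The difference was -0.80 ± 0.26 with a 95% interval from -1.40 to -0.19 (adjusted p = 0.0743 in limma). It passed without normal replicate 1 (-1.04, adjusted p = 0.0236) and with array weights, where it was -1.14 (adjusted p = 0.00988), and it was -0.52 without normal replicate 2 (adjusted p = 0.173).

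**Figure D2:**
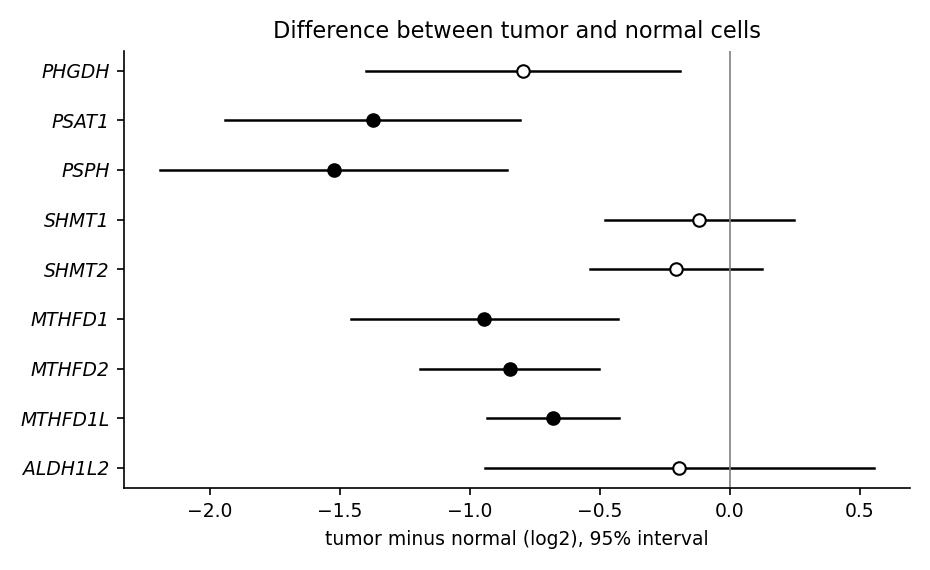
Difference between tumor and normal cells (log2) of each enzyme with its 95% interval from limma, 3 samples a group; filled points passed an adjusted p of 0.05 and open points did not. The intervals of SHMT1, SHMT2 and ALDH1L2 include 0, and the point of PSPH lies farthest below 0, at -1.52.

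The serine hydroxymethyltransferases did not pass the test. SHMT2, the mitochondrial enzyme, stood at 9.93, 10.27 and 10.03 in the normal and at 9.70, 9.86 and 10.05 in tumor samples. Tumor 3 lay above normal 1 and normal 3, and the difference of -0.21 had a 95% interval from -0.54 to 0.12 (adjusted p = 0.39 in limma), which leaves out a fall of the size of PSAT1 or PSPH. With normal 2 left out SHMT2 differed by -0.11, with tumor 1 left out by -0.12 and with array weights by -0.33, and it passed in none of these. SHMT1, the cytosolic enzyme, stood at 3.07, 3.03 and 3.40 in the normal and at 3.06, 2.83 and 3.26 in tumor samples, all under 3.54, the level that 95% of olfactory receptor group means did not exceed. Fibroblasts are not known to use olfactory receptors, so this level served as a guide to background, and the SHMT1 difference of -0.12 (95% interval -0.48 to 0.25) is between values at that background.

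Among the 9 enzymes, the folate enzymes after this step were lower in tumor cells, apart from ALDH1L2. MTHFD1 alone stands for the cytosol. MTHFD1L, the mitochondrial synthetase that frees formate, stood at 8.82, 8.76 and 8.69 in the normal and at 8.08, 7.99 and 8.16 in tumor samples. It had the smallest spread of the called enzymes relative to its shift, a range of 0.13 in normal and 0.17 in tumor samples around a fall of -0.68 ± 0.11 (adjusted p = 0.00564 in limma). Its second probe set, at 7.88 to 8.12 in normal and 7.05 to 7.24 in tumor samples, differed by -0.83 ± 0.12 (adjusted p = 0.00515 over all probe sets in limma). MTHFD2, the mitochondrial dehydrogenase and cyclohydrolase, stood at 9.31, 9.78 and 9.51 in the normal and at 8.54, 8.78 and 8.74 in tumor samples. The groups of MTHFD2 were 0.53 apart, and the fall was -0.85 ± 0.15 (adjusted p = 0.00796 in limma).

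MTHFD1, the cytosolic enzyme, stood at 6.64, 7.19 and 7.60 in normal samples and at 6.19, 6.17 and 6.24 in tumor samples. The tumor samples were nearly level while the normal samples spread over 0.96. Among genes above the olfactory receptor level in a group, 5.79% had a normal range as wide and 6.36% a tumor range as narrow. The fall was -0.94 ± 0.22 (adjusted p = 0.0242 in limma), but it no longer passed once normal replicate 2 or any 1 of the tumor samples was left out (adjusted p = 0.0606 to 0.0827). Normal 3, the highest for MTHFD1, was also the highest for the mean of the cycling markers, at 8.25 against 7.22 in normal 1 and 7.33 in normal 2. Among tumor samples those means were 5.91, 6.72 and 6.57, a spread that MTHFD1 did not have. The relation of MTHFD1 to these markers was not tested.

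ALDH1L2, the mitochondrial formyltetrahydrofolate dehydrogenase, differed from the others in its spread. It stood at 8.37, 9.21 and 7.72 in the normal and at 8.23, 8.26 and 8.23 in tumor samples. The tumor samples lay within 0.03 of each other, inside a normal range of 1.49. Of genes above the olfactory receptor level in a group, 1.55% had a normal range as wide and 1.34% a tumor range as narrow. The difference of -0.19 ± 0.32 had a 95% interval from -0.94 to 0.56 (adjusted p = 0.756 in limma) and became 0.20 without normal replicate 2, -0.55 without normal replicate 3 and -0.71 with array weights.

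Cytosolic and mitochondrial partners of a step were set against each other as the difference of their log2 values within each sample. MTHFD1L minus MTHFD1 was 1.61 ± 0.55 in normal and 1.88 ± 0.05 in tumor samples (SD, n = 3; exact permutation p = 0.6, adjusted 0.7 over the 3 pairs). The difference between those means, 0.26, was 0.0017 without normal replicate 3 and 0.55 without normal replicate 1. For SHMT2 minus SHMT1 the group means differed by -0.09 and for ALDH1L2 minus ALDH1L1 by -0.31 (exact permutation p = 0.7 each, adjusted 0.7). This two-sided test cannot go below 0.1 with 3 samples a group, whatever the size of a shift, so its p-values say nothing for or against a shift between compartments. SHMT1 and ALDH1L1 were dim, which limits both of these ratios.

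The samples took similar places for several enzymes. Normal 2 was the highest normal sample for 6 of the 9 enzymes, where 26.4% of genes above the olfactory receptor level in a group had it highest. PHGDH, PSAT1, PSPH and SHMT2 shared one order, normal 2 over normal 3 over normal 1 and tumor 3 over tumor 2 over tumor 1, an order that 2.19% of those genes had. The order was read from these values and is a description with no test. The mean of PHGDH, PSAT1 and PSPH was 8.65, 9.57 and 8.91 in the normal and 7.44, 7.87 and 8.12 in tumor samples.

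**Figure D3:**
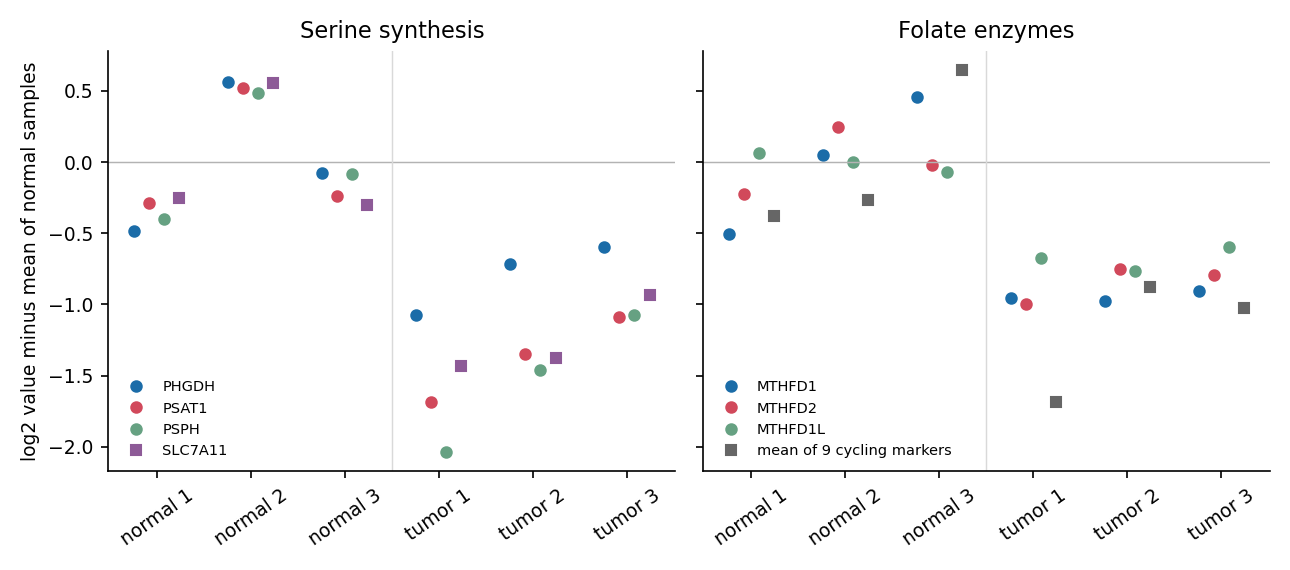
Log2 value of each sample minus the mean of the 3 normal samples, for PHGDH, PSAT1, PSPH and SLC7A11 (left) and for MTHFD1, MTHFD2, MTHFD1L and the mean of 9 cycling-cell markers (right). Normal 2 is highest for each gene on the left, while on the right normal 3 is highest for MTHFD1 and for the cycling markers. SLC7A11 is shown as the gene closest to PSAT1 over these samples, so its likeness follows from that choice.

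The gene whose 6 values, centred on the gene's mean, lay closest to those of PSAT1 was SLC7A11, the cystine transporter subunit and a known ATF4 target (root-mean-square difference 0.11 log2 units over the 6 samples), followed by COL24A1 (0.14) and PSPH (0.15). SLC7A11 stood at 7.25, 8.06 and 7.20 in the normal and at 6.07, 6.13 and 6.57 in tumor samples, and fell by 1.25 ± 0.25 (adjusted p = 0.0128 in limma; 0.0513 without tumor replicate 2). Closest to PSPH were CACNA1A (0.11), PSAT1 (0.15) and NELL2 (0.21). MTHFD1 had MYBBP1A, GTPBP8 and LTV1 as its closest genes, at 0.07 each, MTHFD2 had NHSL1 (0.07), SPPL2B (0.08) and NETO2 (0.08), and MTHFD1L had PITPNA (0.05), PPP2R1B (0.05) and MMAB (0.06). These were the closest of 18010 genes and so were chosen for their likeness.

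Beside the 9 enzymes, 62 other genes of folate, methionine, transsulfuration, glycine, transport and purine pathways were measured, of which 16 fell and 3 rose, with a median difference of -0.17. By the same test 9.44% of all genes were called lower and 8.56% higher, and 13% lower among genes above the background guide. These shares also stand beside the list counts that follow. Without normal replicate 2 the counts were 8 and 1, and without tumor replicate 1 or tumor replicate 2 they were 10 and 1. Calls over all genes went from 3242 to 1765, 1968 and 1887 in those fits, in that order. Of 12 folate cycle genes 4 fell and 0 rose in limma (also 4 and 0 at an unadjusted p of 0.05), and 2 fell with any sample but normal replicate 1 left out. MTFMT, which formylates the mitochondrial initiator methionyl-tRNA with a folate-bound carbon, fell by 1.05 ± 0.12 (adjusted p = 0.00117 in limma). ATIC, which carries out the last steps of purine synthesis, fell by 0.95 ± 0.14 (adjusted p = 0.00396 in limma). GGH, which trims the glutamate tail of folates, differed by -1.03 (adjusted p = 0.0426 in limma) and GART, a purine enzyme that uses formylated folate, by -0.52 (adjusted p = 0.0483). Both calls were lost in 5 of the 6 fits with a sample left out, and held without normal replicate 1 (adjusted p up to 0.141 for GGH and 0.149 for GART). Both were also lost with adjustment over all probe sets. The call of GART was lost too under quantile normalization, median centring and the replicate block. TYMS, thymidylate synthase, stood at 7.79 to 8.42 in normal and 7.36 to 8.12 in tumor samples, a difference of -0.28 with a 95% interval from -0.82 to 0.26. MTHFD2L, the close relative of MTHFD2, differed by 0.26 (95% interval -0.09 to 0.62).

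Several carriers that bring serine and glycine across the plasma membrane had less mRNA in tumor cells, while other carriers of the list were not called. Among the latter were SLC38A2 (-0.04) and SLC1A5 (-0.44) of the plasma membrane and SFXN1, SFXN2 (-0.37) and SLC25A32 of the mitochondrial membrane. SLC38A2, SLC1A5 and SFXN2 were named after their values were seen. Of 13 transport genes 4 fell and 0 rose in limma (5 and 0 at an unadjusted p of 0.05). SLC38A5, a carrier of glutamine, serine and glycine, stood at 6.65 to 6.88 in normal and 4.64 to 4.95 in tumor samples, a fall of -2.01 ± 0.13 (adjusted p = 0.000131 in limma). The glycine transporter SLC6A9 (-1.03), the neutral amino acid and serine exchanger SLC1A4 (-0.95) and SLC38A1 (-0.63) also fell. SLC38A1 no longer passed once normal 2 or tumor 2 was left out (adjusted p up to 0.0528). SFXN1, which carries serine into mitochondria, differed by -0.01 (95% interval -0.25 to 0.23), with a sign that turned under quantile normalization and array weights, and SLC25A32, the mitochondrial folate carrier, by -0.08 (-0.41 to 0.25), with a sign that turned under array weights.

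**Figure D4:**
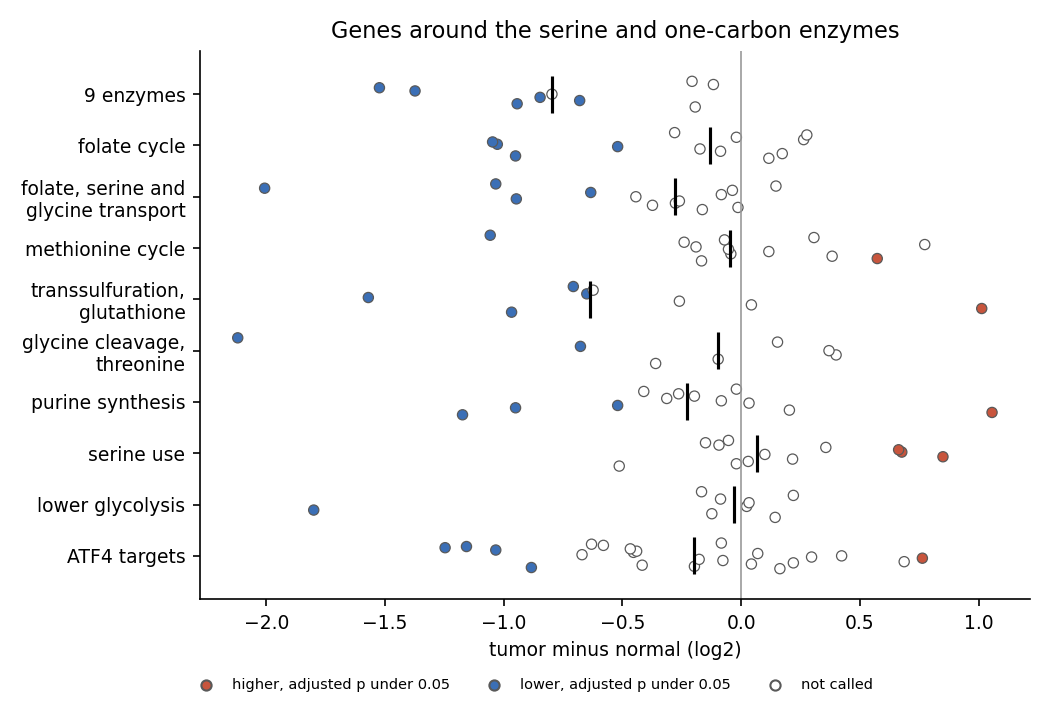
Difference between tumor and normal cells (log2) of each measured gene in the 9 enzymes and 9 lists of related genes, blue where lower and red where higher at an adjusted p of 0.05 in limma; black bars are list medians. The median of the 9 enzymes lies at -0.80 and that of the lower glycolysis genes at -0.03.

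Purine synthesis, which uses the folate-bound carbon, had 3 of 12 genes that fell and 1 that rose. GART and ATIC, given with the folate cycle, are among those that fell. ADSL, adenylosuccinate lyase, fell by 1.17 ± 0.17 (adjusted p = 0.00388 in limma), and ADSS1, an adenylosuccinate synthase, rose by 1.06 ± 0.14 (adjusted p = 0.00233). Of 12 methionine cycle genes AHCYL1 rose (0.57) and SRM, spermidine synthase, fell (-1.06), but neither passed once normal 2, tumor 1 or tumor 2 was left out (adjusted p up to 0.065 for AHCYL1 and 0.0749 for SRM). MAT2A, which makes S-adenosylmethionine, differed by -0.19 (95% interval -0.58 to 0.20) and AHCY, which clears its by-product, by -0.17 (-0.48 to 0.14). Of 8 genes of transsulfuration and glutathione 4 fell and 1 rose. With normal 2 left out 1 fell, and with tumor 1 or tumor 2 left out 2 fell, and CDO1, the one that rose (1.01), no longer passed once normal 2 or any 1 of the tumor samples was left out (adjusted p up to 0.0696).

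CBS, which joins serine to homocysteine, fell by 0.97 ± 0.21 (adjusted p = 0.0181 in limma; 0.0645 without tumor replicate 1). GCLC, the catalytic subunit of glutamate-cysteine ligase, stood at 8.50 to 8.65 in the normal and at 6.14, 7.24 and 7.64 in tumor samples. Tumor 1 was the lowest, and GCLC fell by 1.57 ± 0.34 (adjusted p = 0.0168; 0.0544 without normal replicate 2). GSS, glutathione synthetase, fell by 0.71 ± 0.14 (adjusted p = 0.0135 in limma; up to 0.0553 without normal replicate 2 or tumor replicate 2). Among 7 glycine cleavage and threonine genes 2 fell and 0 rose in limma (2 and 1 at an unadjusted p of 0.05). TDH, threonine dehydrogenase, fell by 2.12 ± 0.23 (adjusted p = 0.00108) to a tumor mean under the olfactory receptor level, so its size is not exact. GLDC, the decarboxylase of glycine cleavage, fell by 0.68 ± 0.14 (adjusted p = 0.0141) with both groups under that level, and it no longer passed once normal 2 or tumor 1 was left out (adjusted p up to 0.0577).

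The glycolytic genes around 3-phosphoglycerate, the substrate of PHGDH, had a median difference of -0.03. Of 8 measured, 1 fell and 0 rose in limma (also 1 and 0 at an unadjusted p of 0.05), the enolase ENO2 by 1.80 ± 0.20 (adjusted p = 0.00111). Of 12 genes listed for serine use 3 rose and 0 fell in limma (4 and 1 at an unadjusted p of 0.05, and 1 fell in limma without normal replicate 1). Those that rose were SERINC1 (0.85), SERINC5 (0.66) and SERINC3 (0.68), membrane proteins named for serine incorporation into lipids. No enzyme of this list was called. Among them PTDSS1 differed by -0.51 (adjusted p = 0.0843 in limma) and SPTLC1 by 0.36 (adjusted p = 0.0623), both named after their values were seen. SERINC3 passed with normal 1 left out but with no other sample left out (adjusted p up to 0.0962).

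Among 23 genes regulated by or acting with ATF4, 4 fell and 1 rose, and 7 fell without normal replicate 1 while 2 fell without normal replicate 2 or tumor replicate 2. Over all genes 9.44% were called lower, and 13% of the genes above the background guide in at least 1 group. At an unadjusted p of 0.05 the counts were 8 and 1, and 11 fell with array weights, which called 5054 genes in all against 3242. The genes that fell were SLC7A11, SLC6A9, SLC7A5 and ASNS. SLC7A5, the large neutral amino acid transporter, fell by 1.16 ± 0.23 (adjusted p = 0.012 in limma; 0.0515 without normal replicate 2). ASNS, asparagine synthetase, stood at 10.01, 10.77 and 10.44 in the normal and at 9.43, 9.44 and 9.70 in tumor samples. It fell by 0.88 ± 0.20 (adjusted p = 0.0195), but no longer passed once normal 2, normal 3, tumor 1 or tumor 2 was left out (adjusted p up to 0.0704). The gene that rose, named after its values were seen, was GDF15, a secreted stress cytokine, at 0.76 ± 0.21 (adjusted p = 0.0413), which no longer passed once normal 2, normal 3, tumor 2 or tumor 3 was left out (up to 0.106).

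ATF4 mRNA itself stood at 10.37, 10.61 and 10.55 in the normal and at 10.22, 10.34 and 10.38 in tumor samples. The groups overlapped by 0.01, and the difference of -0.20 had a 95% interval from -0.47 to 0.08 (adjusted p = 0.314 in limma). Normal 2 was the highest normal sample for 19 of these 23 genes, as for 6 of the 9 enzymes. Among genes above the olfactory receptor level in a group, 26.4% had it highest. This too was read from these values and is a description with no test. MYC, a transcription factor known to drive several one-carbon genes, differed by 0.18 (95% interval -0.16 to 0.51).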

How the data were processed

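Messenger RNA of 6 samples, grouped and numbered by their titles, was measured on microarrays. The authors deposited log2 values from RMA, per the submitters' processing notes, with a version not given in the sources used here. RMA corrects background, normalizes by quantiles and summarises probes. No scanner files, detection calls or batches were examined. Of 24415 probe sets, 18457 had 1 gene symbol in the platform annotation, which can be old; 688 with several symbols and 5270 unnamed here were not used for genes. Symbols were checked through Entrez identifiers against the RefSeq table of ARS-UCD2.0 (17996 matched, 0 updated), and no coordinates or sequences are given.

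Tumor and normal groups were tested in R 4.3.3 by limma 3.58.1, using lmFit then eBayes, two-sided, without covariates or filter, on 1 probe set a gene, with Benjamini-Hochberg adjustment over 18010 genes. Differences are tumor minus normal with standard errors; precision is limited by the number of samples. Tested on simulated data for the 18010 genes, the fit recovered 16% of genes changed by 0.5, 66% by 1, 96% by 2 and 98% by 3 (log2, 50 genes each). The simulation changed far fewer genes than the 3242 called in the data. That makes its adjustment stricter, so these rates do not give the power of the real fit. The olfactory receptor level, 3.54, came from 717 probe sets.

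The enzymes, lists and tests were chosen with earlier results of these data known, and some genes are in more than 1 list. The text names the 9 enzymes, the markers and up to 4 called genes of each list with the largest change. It also gives 16 genes fixed by name and the 3 closest profiles to each called enzyme. GDF15, SLC38A2, SLC1A5, SFXN2, PTDSS1 and SPTLC1 were added after their values were seen. Alternatives covered normalization, filters, variance models, array weights, a replicate block, probe set choice, adjustment and each sample left out.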

Additional observations from a re-analysis of the deposited data

How the results depend on the processing

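PSAT1, PSPH, MTHFD2 and MTHFD1L fell and passed in each of 16 alternatives. MTHFD1 passed in 12, and PHGDH in 3 (array weights, the replicate block and without normal replicate 1). ALDH1L2 ran from -0.55 to 0.195 with 1 sample left out, the positive value without normal replicate 2, and the cause was not tested. The number of enzymes that fell was 4 to 6 with 1 sample left out. Genes called were 3242 in all, 5054 with array weights and 1765 to 3226 with 1 sample left out. Other pathway genes that rose were 3, or 5 with array weights and 1 to 4 with 1 sample left out, and those that fell were 16, or 8 to 18 with 1 sample left out. SHMT2 minus SHMT1 shifted by -0.09, with a range of -0.23 to 0.075 over samples left out, and ALDH1L2 minus ALDH1L1 by -0.31, with a range of -0.56 to 0.09; the highest value of each came without normal replicate 2. MTHFD1L minus MTHFD1, at 0.26, ran from 0.0017 to 0.5467. Values near 0 changed sign for SFXN1 with quantile normalization (0.0481), with array weights (0.0214) and with normal 3 or tumor 1 left out (-0.0317 to 0.0233 over samples left out), and for SLC25A32 with array weights (0.054) and with tumor 1 left out (-0.1717 to 0.0283). Whether the numbers in the titles pair the samples is not known. Deviations of same-numbered samples correlated at 0.05, -0.08 and 0.07, which cannot settle it with 3 samples a group. With the replicate block, 2895 genes were called and PHGDH passed (adjusted p = 0.0388). SHMT1 has no value under the olfactory receptor filter, which leaves it out. The causes of these shifts were not tested. Signal near background limits SHMT1 and GLDC.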
